A study of Rattus norvegicus with 16 samples.

Results

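Cytosolic ribosomal proteins are the protein building blocks of the ribosome, the particle that reads messenger RNA into protein. Their genes were chosen by name on the array: names of Rpl or Rps followed by a number, with or without the suffix letters a, l, x or y, and the genes Rplp0, Rplp1, Rplp2 and Rpsa. The ribosomal S6 kinases, which share the prefix Rps6k, were left out. The rule took 82 of 26269 gene names, 145 of 30367 probes and 163 of 42877 gene spots, and it used no measured value. Of the 82 genes, 50 carried names of the large subunit and 32 of the small subunit. Levels were measured on 16 one-color arrays of rat hepatoma H35 cells, a liver tumor line, with 4 biological replicates in each of 4 groups. All 4 groups were transfected with a plasmid, and no untransfected culture was among them. CN-10 is a stable clone with a negative control shRNA sequence. Clone 4-18 is stably transfected with the plasmid shRNA4 and clone 3-44 with the plasmid shRNA3, each designed to silence Pdrg1, the gene of a small oncogenic protein that binds methionine adenosyltransferases. The group shRNA3T is a pool of transiently transfected cells with the plasmid shRNA3, enriched with G418. Selection began 48 h after transfection with 1.8 mg/ml G418 for 2 weeks, and the clones had another 2 weeks at 4 mg/ml. Each stable group is a single clone, so that clone and plasmid cannot be told apart. Each group was hybridized on a slide of its own, so that slide and group cannot be told apart either.

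The ribosome has a small subunit, which holds the messenger RNA and decodes it, and a large subunit, which joins the amino acids. A cell makes the proteins of both in near equal numbers, and their mRNAs begin with a run of pyrimidines, the 5' terminal oligopyrimidine (TOP) motif, through which growth signals raise or lower their translation together. Proliferating tumor cells carry these mRNAs among their most abundant, and several of the proteins have tasks outside the ribosome, such as the binding of the p53 regulator MDM2 by RPL5 and RPL11.

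Each gene is given by its probe with the highest mean, as log2 level after background correction and quantile normalization, which assigns each spot a level by its rank on the array. A probe's log2 level is a brightness that also depends on the probe, so that levels of different genes are not compared as amounts of RNA. By signal the 82 genes were among the brightest on the arrays: 79 lay in the brightest 10% of gene names, 76 in the brightest 5% and 54 in the brightest 1%. The probe was well above background on all 16 arrays for 80 genes, the exceptions being Rpl3l and Rpl10l, and no spot was saturated. At this end of the scale few ranks are left, and 42 of the 82 genes (51.2% against 2.98% of all gene names) had the same level, to 6 decimals, on 2 or more arrays. Another limit is the sequence itself, since ribosomal protein genes have many processed copies in the genome: 30 of the 145 probes shared a run of at least 30 bases with a probe of another gene name, among them the brightest probe of 19 genes. The array had 290 further probes whose description names a ribosomal protein under other gene names, and these were not members.

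The array of replicate 1 lay farthest from the rest of its group, for these genes and for others, though in 4-18 by little over all gene names. The distance of an array was taken as the median over the 82 genes of the difference from the median of the other 3 arrays of its group, without sign. It was 0.25 for CN-10 replicate 1, 0.30 for 4-18 replicate 1, 0.22 for 3-44 replicate 1 and 0.27 for shRNA3T replicate 1 on the log2 scale. For the brightest 10% of gene names the same arrays lay at 0.22, 0.33, 0.31 and 0.29, and for all gene names at 0.15, 0.19, 0.20 and 0.16. Over all gene names the other arrays lay at up to 0.12 in CN-10 and 3-44, 0.18 in 4-18 and 0.08 in shRNA3T. Over the 82 genes the other arrays of 3-44 and shRNA3T lay between 0.04 and 0.08. Those of CN-10 lay between 0.10 and 0.19 and those of 4-18 between 0.18 and 0.22. Replicate 1 was the array farthest from the middle of its group for 62 of 82 genes in 3-44 and for 62 of 80 in shRNA3T. In CN-10 it was so for 43 of 76 genes and in 4-18 for 36 of 78. Counts of members called are therefore given with and without replicate 1 of every group, an alternative chosen after the data had been seen. The 4-18 slide was scanned apart from the other 3 slides and was the dimmest. Its 75th percentile of processed signal was 1613 to 1878, against 2290 to 3647 on the other arrays. Pdrg1 itself differed from CN-10 by -0.77 (4-18), -0.99 (3-44) and -0.85 (shRNA3T) on the log2 scale, with SE 0.34 and n = 4 in each. All arrays of each group lay below those of CN-10, and the adjusted p of limma was 0.13, 0.10 and 0.14. Of 10 hepatocyte markers 8 were above background on every array, of 4 leukocyte markers none was, and of 4 endothelial and 4 fibroblast markers 1 each was (Cdh5 and Col1a1). Of the hepatocyte markers 1 was called higher and 4 lower in 4-18, 4 and 0 in 3-44, and 4 and 1 in shRNA3T, and their part in the results below was not tested.

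**Figure D1:**
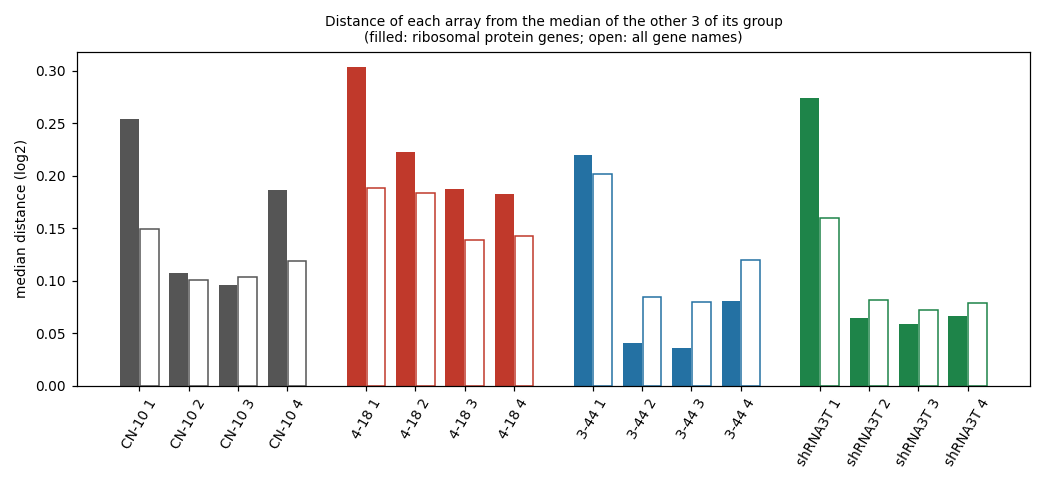
Bars show for each array the median distance (log2, without sign) from the median of the other 3 arrays of its group, filled for the 82 ribosomal protein genes and open for all gene names. Replicate 1 has the longest filled bar in each of the 4 groups, from 0.22 in 3-44 to 0.30 in 4-18.

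Few ribosomal protein genes were called in the silenced groups. In these bulk RNA samples fewer cells of a kind and less RNA per cell cannot be told apart. In 4-18 against CN-10, 64 of 82 genes differed by less than 0.5 on the log2 scale, 78% against 77.5% of all gene names, in 3-44 79 (96.3% against 89.8%) and in shRNA3T 81 (98.8% against 86.4%). The median of the 82 differences was -0.09 in 4-18, -0.00 in 3-44 and 0.09 in shRNA3T, where the median over all gene names was 0.00, -0.01 and -0.01. A gene was called with an adjusted p under 0.05 in limma's moderated test, corrected over all 30367 probes. In 4-18 against CN-10, 5 genes were higher and 8 lower, 15.9% of the members against 24.1% of all gene names and 34.8% of the brightest 10%. In 3-44, 2 were higher and 2 lower, 4.88% against 8.14% of all gene names and 12.6% of the brightest 10%. In shRNA3T, 3 were higher and 1 lower, 4.88% against 12.2% and 17.4%. By direction the background was 11.6% higher and 12.4% lower in 4-18, 3.45% and 4.7% in 3-44, and 5.13% and 7.04% in shRNA3T. With all arrays and the quantile normalization, the share of members called was below the background in each of these comparisons. The arrays of both groups did not overlap for 12, 10 and 9 members in 4-18, 3-44 and shRNA3T (14.6%, 12.2% and 11%), against 23.5%, 16.3% and 22.2% of all gene names. The median SE of a member was 0.18, against 0.13 over all gene names and 0.17 in the brightest 10%.

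Without replicate 1 of every group, the counts rose to 9 higher and 12 lower in 4-18 (25.6% against 25.7% of all gene names and 39.9% of the brightest 10%), 3 higher and 6 lower in 3-44 (11% against 10.5% and 18.8%), and 4 higher and 1 lower in shRNA3T (6.1% against 14.4% and 21.7%). Of the 13 genes called in 4-18 with all arrays, 11 were among these 21. The share of members was then near that of all gene names in the clones, below it in the pool, and below that of the brightest 10% in all 3. Genes that joined the calls in 4-18 without replicate 1 included Rps18, Rps29, Rps15a, Rpl13a and Rps2 among the lower, and Rpl22, Rpl28 and Rpl19 among the higher. Rps18, of the head of the small subunit, gave -1.07 with all arrays (adjusted p 0.12) and -1.12 without replicate 1 (adjusted p 0.036). The split by direction in 4-18 depended on how the arrays were scaled. The quantile normalization gave 5 higher and 8 lower, cyclic loess 12 and 4 (19.5% against 22.7% of all gene names), and the 75th percentile of the processed signal 28 and 2 (36.6% against 27.8%, and 36.1% of the brightest 10%). The share of members in 4-18 was thus above that of all gene names under that last scaling. It moved the median of all gene names to 0.19 in 4-18 and -0.23 in shRNA3T, and the median of the members was 0.31 and 0.17 beside it. The splits in 3-44 and shRNA3T became 2 higher and 0 lower (2.44% against 6.99%), and 5 higher and 0 lower (6.1% against 12.2%). No direction of the 82 genes as a family is therefore given. All 13 calls in 4-18 kept their direction under these scalings, and 9 passed the test under cyclic loess and 6 under the 75th percentile.

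**Figure D2:**
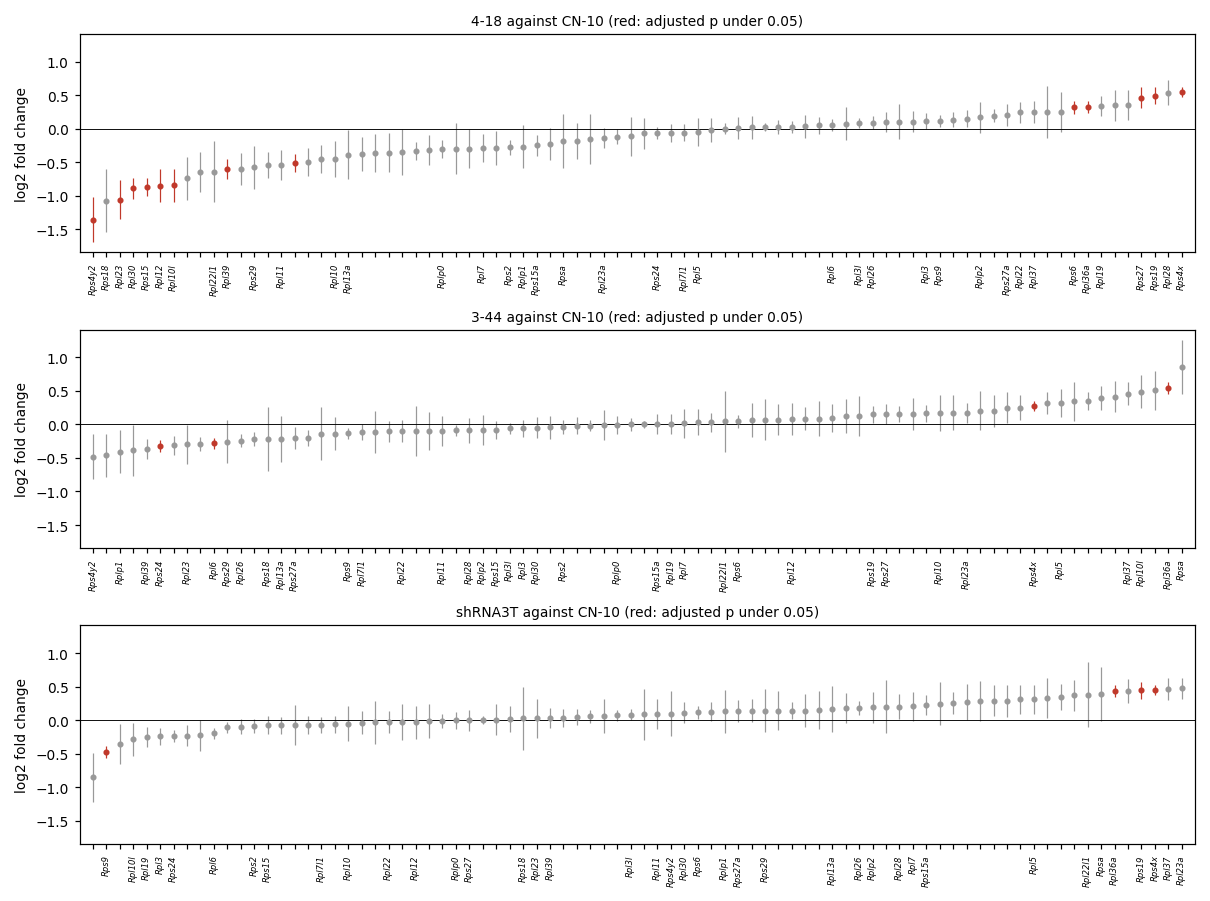
The log2 fold change of each of the 82 genes against CN-10 is drawn with its standard error, in order of size, in 4-18, 3-44 and shRNA3T (n = 4 arrays per group, red for an adjusted p under 0.05), with names for genes described in the text. Values run from -1.36 to 0.55 in 4-18, from -0.48 to 0.86 in 3-44 and from -0.85 to 0.47 in shRNA3T.

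**Figure D3:**
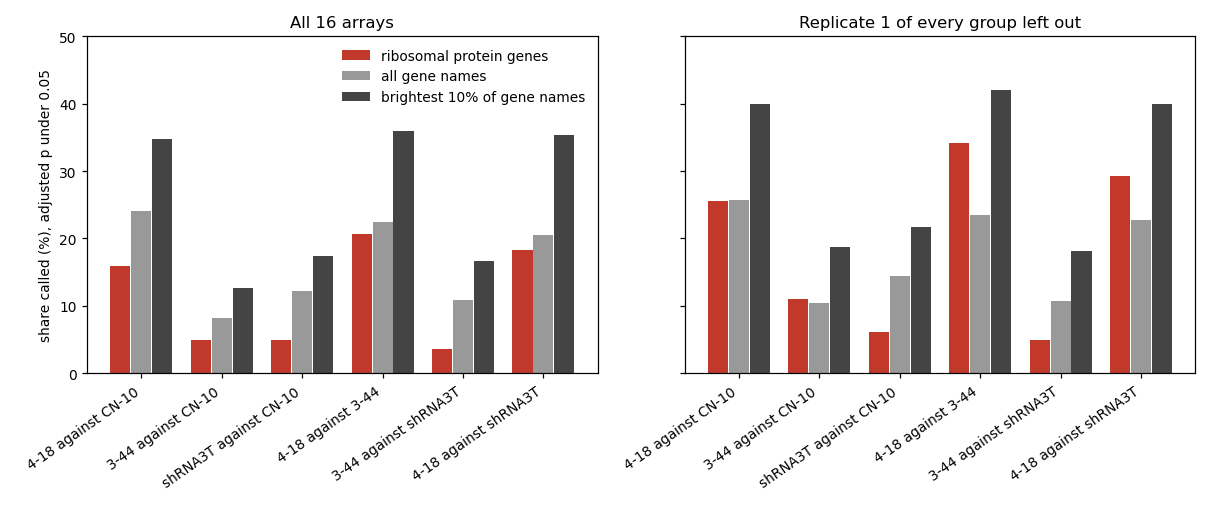
Bars give the share (%) with an adjusted p under 0.05 in each comparison among the 82 ribosomal protein genes, all gene names and the brightest 10% of gene names, with all 16 arrays (left) and with replicate 1 of every group left out (right). With all arrays the members lie below both other bars in all 6 comparisons, and with replicate 1 left out they lie above all gene names in 3 of them, 4-18 against 3-44 (34.1% and 23.5%) among these.

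Rps4x and Rpl36a were higher in all 3 silenced groups, and they were the only members called in all 3 comparisons with CN-10, which share the control arrays (2.44% against 2.8% of all gene names, and 1.15% higher in each). Rps4x is the X-linked copy of small subunit protein S4, and Rpl36a, also on the X chromosome, is a large subunit protein near the exit site for transfer RNA. The probe of Rps4x lay on chrX:90252399-90252458 of the rn4 build, minus strand. The 2 brightest probes of Rpl36a lay at nearly the same place, on chrX:122042684-122043811 and chrX:122042681-122043808, plus strand, and 54 of their 57 aligned bases are identical. The sequences are shown because both calls rest on them, and capitals in the second Rpl36a probe mark the bases that differ from the first.
Rps4x probe: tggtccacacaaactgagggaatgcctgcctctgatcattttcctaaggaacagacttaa
Rpl36a probe 1: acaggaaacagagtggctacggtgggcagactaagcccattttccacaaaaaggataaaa
Rpl36a probe 2: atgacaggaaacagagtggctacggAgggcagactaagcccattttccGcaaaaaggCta

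The levels of Rps4x in replicates 1 to 4 were 16.23, 16.01, 16.09 and 16.18 in CN-10, 16.72, 16.61, 16.59 and 16.79 in 4-18, 16.51, 16.38, 16.32 and 16.39 in 3-44, and 16.68, 16.60, 16.54 and 16.51 in shRNA3T. Every array of a silenced group lay above every array of CN-10. Rps4x rose by 0.55 in 4-18 (SE 0.07, n = 4, adjusted p of limma 6.1e-05), in 3-44 by 0.27 (adjusted p 0.036) and in the pool shRNA3T by 0.45 (adjusted p 0.00074), and 4-18 also lay above 3-44 by 0.28 (adjusted p 0.012). The calls in 4-18 and shRNA3T held under each of 29 other settings, and that in 3-44 under 16 of them. Rpl36a read 17.36, 17.21, 17.24 and 17.22 in CN-10 and 17.79, 17.39, 17.61 and 17.52 in 4-18, and its levels were 17.97, 17.76, 17.74 and 17.76 in 3-44 and 17.55, 17.73, 17.80 and 17.67 in shRNA3T. Here too no array of a silenced group reached down to the CN-10 range. The rise was 0.32 in 4-18 (SE 0.09, adjusted p 0.017), in 3-44 it was 0.54 (adjusted p 0.0013) and in the pool 0.43 (adjusted p 0.0051). The calls in 3-44 and shRNA3T held under all 29 settings, and that in 4-18 under 26. On the second probe the difference was 0.88 in 3-44 and 0.98 in shRNA3T, with adjusted p of 0.0053 and 0.0015, and 0.36 in 4-18 (adjusted p 0.16). Another bright probe gave 0.15, 0.27 and 0.76 in 4-18, 3-44 and shRNA3T, and none of these passed.

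**Figure D4:**
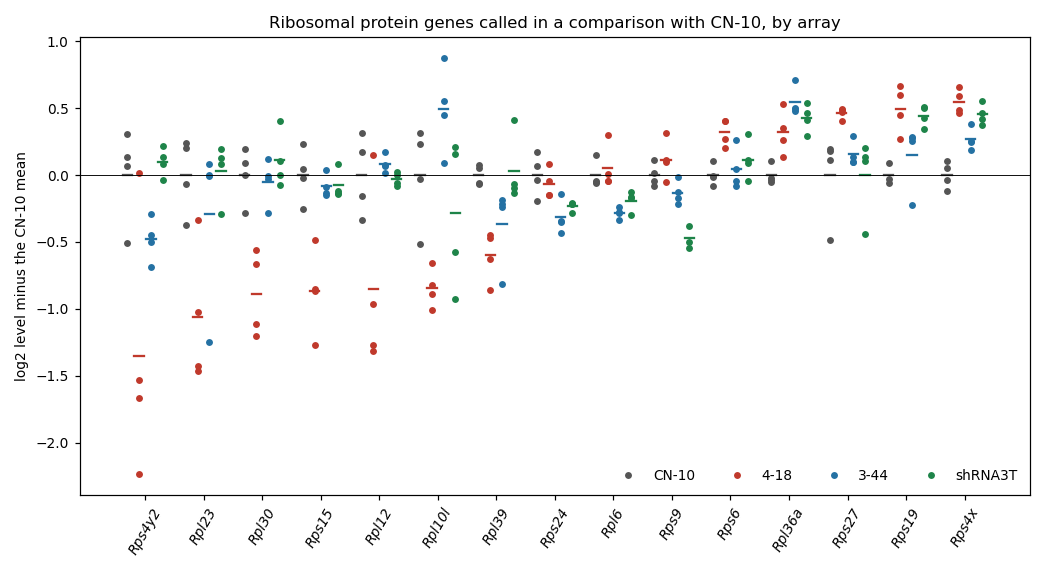
Each point is an array, as log2 level minus the CN-10 mean of that gene, and short lines are group means, for 15 of the 16 ribosomal protein genes called in a comparison with CN-10 in order of their difference in 4-18. Rps4x and Rpl36a lie above the CN-10 arrays on every silenced array, and for Rps4y2, Rpl23 and Rpl12 1 array of 4-18 lies apart from the other 3.

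The 8 genes that were lower in 4-18 were 6 of the large and 2 of the small subunit, and none of them was called in 3-44 or shRNA3T. Rpl30, a large subunit protein that binds its own transcript in yeast, fell by 0.89 (SE 0.16, adjusted p 0.00069), a 1.85-fold decrease. Its levels were 17.44, 17.73, 17.81 and 17.92 in CN-10 and 17.16, 16.61, 16.52 and 17.06 in 4-18. All 4 arrays of 4-18 lay below all 4 of CN-10, while the arrays of 3-44 (17.44 to 17.85) and shRNA3T (17.65 to 18.13) overlapped those of CN-10. Rps15, a protein near the decoding site of the small subunit, read 18.45, 18.20, 18.27 and 17.97 in CN-10 and 17.37, 17.36, 16.96 and 17.74 in 4-18. It fell by 0.87 (SE 0.14, adjusted p 0.00027) without overlap. In both genes a further bright probe gave another value, -0.03 for Rpl30 and 0.17 for Rps15, with adjusted p of 0.87 and 0.35. With the processed signal scaled by its 75th percentile the brightest probes gave -0.22 (adjusted p 0.27) and -0.09 (adjusted p 0.70), so that neither call held there.

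Rpl12, a protein at the base of the stalk to which the elongation factors bind, was the only one of the lower genes whose other bright probe was also called. The probes lay on chr3:11953965-11954262 and chr3:11953950-11954157 of rn4, plus strand, and 43 of their 45 aligned bases are identical. Capitals in the second mark the bases that differ.
Rpl12 probe 1: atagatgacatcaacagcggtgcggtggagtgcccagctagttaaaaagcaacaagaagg
Rpl12 probe 2: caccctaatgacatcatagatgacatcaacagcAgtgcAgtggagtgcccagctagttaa
On the first probe Rpl12 read 18.60, 18.13, 18.45 and 17.94 in CN-10 and 17.31, 16.97, 18.43 and 17.01 in 4-18, where replicate 3 lay with the controls. On the second probe the levels were 16.57, 16.75, 16.99 and 17.07 in CN-10 and 16.35, 15.89, 15.85 and 16.01 in 4-18, with no overlap. The differences were -0.85 (SE 0.25, adjusted p 0.020) and -0.82 (adjusted p 0.00026). In 3-44 they were 0.08 and 0.02, and in shRNA3T -0.03 and 0.04. With the processed signal scaled by its 75th percentile the first probe gave -0.03 (adjusted p 0.95), and its call was also lost without replicate 1 of every group (-0.70, adjusted p 0.14) and under cyclic loess (adjusted p 0.051).

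Rps4y2, which the array names as a Y-linked type of S4 and places on chr4:185978154-185978213 of rn4, had the largest difference of all members. The sequence of its probe is given because the largest difference rests on it.
Rps4y2 probe: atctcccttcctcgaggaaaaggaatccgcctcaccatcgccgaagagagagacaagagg
Its levels were 15.15, 14.98, 14.91 and 14.34 in CN-10 and 13.31, 13.17, 12.60 and 14.86 in 4-18, where replicate 4 lay within the control range. It fell by 1.36 (SE 0.34, adjusted p 0.0082), 2.56-fold, and by 1.45 against shRNA3T (adjusted p 0.0059), and its difference in 3-44 was -0.48 (adjusted p 0.50). Without replicate 1 of every group the difference from CN-10 was -1.19 and did not pass (adjusted p 0.076). Rpl23, a large subunit protein that also binds MDM2, fell by 1.06 (SE 0.29, adjusted p 0.015), 2.09-fold. It read 17.60, 18.18, 17.90 and 18.22 in CN-10 and 16.51, 16.55, 17.64 and 16.95 in 4-18, and replicate 3 of 4-18 reached above the lowest control. Under the 75th percentile scaling it gave -0.38 (adjusted p 0.25). These were the 2 members called and past 2-fold in 4-18, 2.44% against 6.15% of all gene names in either direction and 3.54% lower.

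Rpl39, a small protein of the wall of the exit tunnel, fell by 0.60 (SE 0.15, adjusted p 0.0086). It read 17.83, 17.80, 17.68 and 17.69 in CN-10 and 16.89, 17.28, 17.30 and 17.13 in 4-18. All arrays of 4-18 lay below those of CN-10. The call was lost under the 75th percentile scaling (-0.33, adjusted p 0.26) and cyclic loess (-0.49, adjusted p 0.062). Rpl10l, a copy of Rpl10 best known from testis, was dim. All 4 arrays of 4-18 (6.22 to 6.57) fell short of the background limit, which was passed on all arrays of CN-10 (6.71 to 7.53) and 3-44 (7.31 to 8.10). It was at least 1.61-fold lower in 4-18 than in CN-10 (adjusted p 0.022) and at least 2.27-fold lower than in 3-44 (adjusted p 0.0011). The bound is set by the lowest signal above background on each array, and under cyclic loess the call against CN-10 was lost (adjusted p 0.12). Its namesake Rpl10, which places the catalytic site of the large subunit in its final form, differed by -0.45 (SE 0.26, adjusted p 0.25).

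The other genes that were higher in 4-18 were all of the small subunit. Rps27, a zinc finger protein of the small subunit, rose by 0.46 (SE 0.15, adjusted p 0.039). It read 17.13, 17.73, 17.79 and 17.80 in CN-10 and 18.02, 18.08, 18.11 and 18.10 in 4-18, so that replicate 1 of CN-10 lay apart and the groups did not overlap. Without replicate 1 the difference was 0.32 (adjusted p 0.0019). The call held under 19 of 29 other settings. The other probe of Rps27 read 17.14, 16.96, 16.93 and 17.70 in CN-10. In 4-18 that probe read 17.02, 17.42 and 17.31, with replicate 1 set aside, so that the groups overlapped on it. Rps6, the protein that the S6 kinases phosphorylate downstream of mTOR, rose by 0.32 (SE 0.09, adjusted p 0.020). Its levels were 17.80, 17.61, 17.68 and 17.68 in CN-10 and 17.89, 17.96, 18.10 and 18.10 in 4-18. Its other probe gave 0.40, which did not pass (adjusted p 0.35), and the brightest did not pass under the 75th percentile scaling (adjusted p 0.058). Both probes of Rps6 share 30 bases or more with probes of other gene names.

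Rps19, needed for the maturation of the small subunit RNA and mutated in Diamond-Blackfan anemia, gave opposite answers on its probes. The brightest, on chr1:80180904-80180963 of rn4, was higher by 0.49 in 4-18 and by 0.44 in shRNA3T, with adjusted p of 0.011 and 0.035. The call in shRNA3T held under 17 of 29 other settings and was lost under the 75th percentile scaling (0.31, adjusted p 0.20). The next, on chr1:80177549-80177608, was lower by 0.83 in 4-18 (adjusted p 0.00045). Both lie on the plus strand.
Rps19 probe 1: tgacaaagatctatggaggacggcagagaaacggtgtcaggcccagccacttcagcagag
Rps19 probe 2: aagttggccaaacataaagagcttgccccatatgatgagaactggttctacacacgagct
On probe 1 the levels were 17.72, 17.61 and 17.57 in CN-10, where replicate 3 was set aside as an outlier spot, and 18.23, 17.90, 18.30 and 18.08 in 4-18. On probe 2 they were 18.36, 18.06, 18.18 and 17.77 in CN-10 and 17.45, 17.51, 17.20 and 16.88 in 4-18. Neither pair of groups overlapped, and a further bright probe was higher by 0.41 (adjusted p 0.018). Probe 1 shares a run of at least 30 bases with a probe of another name, and probe 2 shares none. A direction for Rps19 in 4-18 therefore depends on the probe.

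In 3-44 the lower genes were Rps24, another gene of Diamond-Blackfan anemia, and Rpl6, which stabilizes the base of the large subunit. Rps24 read 17.78, 17.67, 17.57 and 17.41 in CN-10 and 17.47, 17.18, 17.25 and 17.27 in 3-44, a decrease of 0.32 (SE 0.09, adjusted p 0.038). Rpl6 read 18.46, 18.25, 18.25 and 18.26 in CN-10 and 18.03, 18.07, 17.97 and 18.02 in 3-44, a decrease of 0.28 (SE 0.08, adjusted p 0.0496). Both differences turned to 0.10 and 0.07 with the processed signal scaled by its 75th percentile, and neither passed then. Rps24 held under 12 of 28 other settings and Rpl6 under 8 of 29, and cyclic loess was among those where they were lost (adjusted p 0.19 and 0.21). In shRNA3T the lower gene was Rps9, a protein at the entry channel for mRNA. It read 17.84, 17.75, 17.69 and 17.66 in CN-10 and 17.19, 17.35 and 17.23 in shRNA3T, where replicate 1 was set aside. Rps9 fell by 0.47 (SE 0.09, adjusted p 0.0031). Under the 75th percentile scaling its difference was -0.10 (adjusted p 0.69). Its probe shares bases with a probe of another name.

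Set against each other, the silenced groups had more calls between 4-18 and either other group. In 4-18 against 3-44, 9 members were higher and 8 lower, 20.7% against 22.5% of all gene names and 36% of the brightest 10%. In 4-18 against shRNA3T, 4 were higher and 11 lower, 18.3% against 20.5% and 35.4%. In 3-44 against shRNA3T, which carry the same plasmid, 1 was higher and 2 lower, 3.66% against 10.9% and 16.7%. By direction the background was 12.4% higher and 10.1% lower in the first of these comparisons, 11.3% and 9.24% in the next, and 5.36% and 5.57% in the last. Arrays did not overlap for 17, 21 and 11 members, 20.7%, 25.6% and 13.4% against 21.8%, 22.6% and 22.1%. Under the 75th percentile scaling the splits were 11 higher and 2 lower, and 14 higher and 5 lower, in the comparisons with 4-18 (15.9% and 23.2% against 22.1% and 29.1% of all gene names). Of the calls in 4-18 against 3-44 and against shRNA3T with all arrays, 4 of 17 and 4 of 15 passed in the same direction under that scaling. Rpl21, lower in 4-18 than in 3-44 by 0.50 (adjusted p 0.011), turned to 0.58 higher and passed there (adjusted p 0.022). Cyclic loess gave 22 and 17 calls, 26.8% and 20.7% against 19.3% and 17.6% of all gene names. Without replicate 1 of every group, 28 members were called in 4-18 against 3-44, 34.1% against 23.5% of all gene names and 42% of the brightest 10%. The counts were 24 in 4-18 against shRNA3T (29.3% against 22.7% and 39.9%) and 4 in 3-44 against shRNA3T (4.88% against 10.8% and 18.1%). Rpl30, Rps15 and Rpl12 were lower in 4-18 than in either other silenced group, by 0.84, 0.78 and 0.93 against 3-44 and by 1.00, 0.79 and 0.82 against shRNA3T. Under the 75th percentile scaling they gave -0.28, -0.17 and -0.14 against 3-44 (adjusted p 0.17, 0.48 and 0.75) and -0.41, -0.20 and -0.13 against shRNA3T (adjusted p 0.048, 0.36 and 0.74). A further probe of Rps15 went the other way, with 4-18 above 3-44 by 0.60 (adjusted p 0.0013), so that the direction of Rps15 there depends on the probe. The further probe of Rpl30 read 16.59, 16.83, 17.01 and 17.01 in 4-18 and 16.79, 16.54, 16.49 and 16.52 in 3-44, and showed no fall. Rpl12 also did not pass in either comparison without replicate 1 of every group (adjusted p 0.077 and 0.12). Rpl23 was lower than in shRNA3T by 1.09 (adjusted p 0.015) and differed from 3-44 by -0.77 (adjusted p 0.074). Under the 75th percentile scaling the former became -0.35 and did not pass (adjusted p 0.29). Rps9 was higher in 4-18 than in shRNA3T by 0.59 (adjusted p 0.00033) and in 3-44 than in shRNA3T by 0.34 (adjusted p 0.027). The latter did not pass under the 75th percentile scaling (0.25, adjusted p 0.34) or cyclic loess (0.24, adjusted p 0.24). Over the 4 groups, limma's moderated F test called 20 members, 24.4% against 32.7% of all gene names and 50.9% of the brightest 10%, and 55 members (67.1% against 60.4% of all gene names) were called in none of the 6 comparisons.

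Some members have a part of their own, among them Rps6 and Rps19, which are described above. Those given here were called in none of the 6 comparisons on their brightest probe, as were 60.4% of all gene names. The stalk proteins Rplp0, Rplp1 and Rplp2, which recruit the elongation factors, differed from CN-10 in 4-18 by -0.30, -0.27 and 0.17 (SE 0.13, 0.33 and 0.23, adjusted p 0.12, 0.63 and 0.66). In 3-44 the values were -0.01, -0.41 and -0.08, and in shRNA3T -0.00, 0.13 and 0.19. Rplp1 read 16.15 in replicate 1 of 3-44 and 17.45 to 17.57 on the other 3 arrays of that group. Rpl5 and Rpl11, which form a particle with 5S ribosomal RNA, differed by -0.05 and -0.54 in 4-18 (adjusted p 0.91 and 0.098), by 0.32 and -0.10 in 3-44 and by 0.31 and 0.09 in shRNA3T. Rpl13a, known for a role in translational silencing after interferon, differed by -0.38, -0.21 and 0.16 in the 3 groups in that order. Its level in 3-44 was 16.51 in replicate 1 and 18.10 to 18.15 in the others. Rpsa, which also serves as a laminin receptor precursor, read 15.86, 15.50, 15.65 and 15.76 in 3-44 and 14.85, 14.94 and 14.70 in CN-10, where replicate 2 was set aside. That difference of 0.86 did not pass (SE 0.40, adjusted p 0.26), while a dimmer probe of Rpsa gave 0.45 in 3-44 and 0.46 in shRNA3T and did (adjusted p 0.020 and 0.013).

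Variant copies are paralogs with a tissue bias or a limited use. The muscle copy Rpl3l was above background on 1 array (6.13 to 6.56 over all 16) and gave no usable difference. Rpl7l1 differed from CN-10 by -0.06, -0.11 and -0.07 in 4-18, 3-44 and shRNA3T, and its namesake Rpl7 by -0.29, 0.02 and 0.21. Rpl22l1, which can take the place of Rpl22, differed by -0.64, 0.04 and 0.38 (SE 0.45, 0.45 and 0.48), and its replicate 1 read 13.93 in 4-18 and 14.74 in 3-44 where the other arrays lay between 15.52 and 16.26. Rpl22 differed by 0.24, -0.10 and -0.03, Rpl3 by 0.11, -0.06 and -0.24, and Rpl26 by 0.09, -0.24 and 0.18. None of these passed against CN-10, and Rpl26 was lower in 3-44 than in shRNA3T by 0.43 (adjusted p 0.013). Under the 75th percentile of the processed signal that direction turned, with 3-44 higher by 0.06 (adjusted p 0.87).

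Probes of the same gene name often gave different answers. Of the 82 genes, 46 had 2 or more probes that were above background on all arrays, 106 probes in all. Within a gene the range of the log2 fold changes had a median of 0.40 in 4-18, 0.31 in 3-44 and 0.32 in shRNA3T, against a median size of a member's difference of 0.27, 0.14 and 0.14. The probes had both signs in 24, 25 and 20 of the 46 genes. In 4-18 the brightest probe was called for 9 of these genes, and a further probe was called the same way for 2 of them, Rpl12 and Rps19. Over all 140 probes above background, 11 were higher and 14 lower in 4-18, 5 and 4 in 3-44, and 8 and 3 in shRNA3T. These were 17.9%, 6.43% and 7.86% of the member probes, against 38.1%, 13.9% and 21.1% of all 13603 probes above background on every array.

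The widest range was that of Rps27a, which encodes ubiquitin fused to a small subunit protein. Its probes lay next to each other on chr14:110559660-110559719 and chr14:110559622-110559681 of rn4, minus strand, and shared 21 bases, in capitals here. The second is printed to its first 30 bases.
Rps27a probe 1: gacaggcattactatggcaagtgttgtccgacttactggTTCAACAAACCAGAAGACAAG
Rps27a probe 2, first bases: cTTCAACAAACCAGAAGACAAGtagttgtg
Probe 1 read 16.21, 16.94, 16.74 and 16.77 in CN-10 and 17.15, 16.76, 16.77 and 16.79 in 4-18. Probe 2 read 16.71, 16.47, 16.38 and 15.29 in CN-10 and 14.27, 14.37 and 14.30 in 4-18, where replicate 4 was set aside. Probe 1 gave 0.20 (adjusted p 0.44) and probe 2 gave -1.90 (adjusted p 4.4e-05), the largest fall of any bright member probe, with no overlap between the groups. In 3-44 and shRNA3T probe 2 gave -0.13 and 0.10.

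Rpl37, a zinc finger protein of the large subunit, had 3 bright probes, on chr2:54302984-54303043, chr2:54302379-54303018 and chr2:54302382-54303021 of rn4, plus strand. Probes 2 and 3 differ at 5 of 57 aligned bases. Capitals mark where each differs from the first.
Rpl37 probe 1: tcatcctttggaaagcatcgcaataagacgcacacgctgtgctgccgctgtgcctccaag
Rpl37 probe 2: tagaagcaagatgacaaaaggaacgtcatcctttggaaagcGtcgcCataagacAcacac
Rpl37 probe 3: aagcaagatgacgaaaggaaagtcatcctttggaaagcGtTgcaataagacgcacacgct
In 4-18 probe 1 gave 0.25 (adjusted p 0.34), probe 2 gave -1.36 (adjusted p 5.8e-05) and probe 3 gave 0.42 (adjusted p 0.018). Probe 2 read 15.04, 14.86, 14.72 and 14.21 in CN-10 and 13.79, 13.10, 13.01 and 13.48 in 4-18, and probe 3 read 13.66, 14.02, 13.94 and 13.97 in CN-10 and 14.62, 14.10, 14.26 and 14.29 in 4-18. Neither pair overlapped, and the directions were opposite. Rpl23a, which lies at the exit of the tunnel, gave -0.14 on its brightest probe and 1.38 (adjusted p 0.0062) on another that shares bases with a probe of another name.

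**Figure D5:**
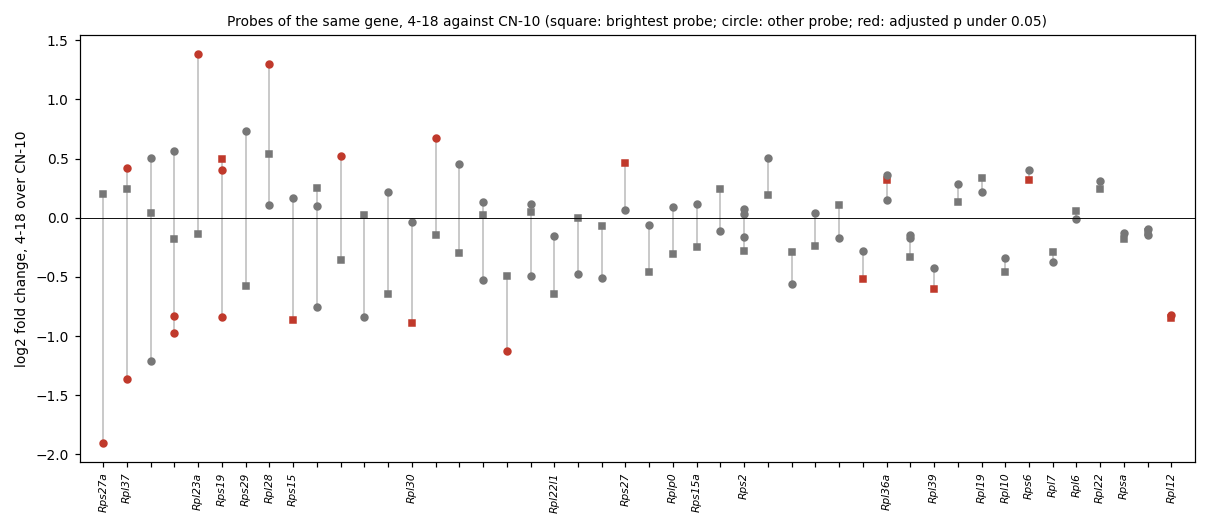
The log2 fold change of 4-18 over CN-10 is drawn for each probe of the 46 ribosomal protein genes with 2 or more probes above background on all arrays, squares for the brightest probe and circles for others, red for an adjusted p under 0.05, in order of the range within a gene, with names for genes described in the text. The range runs up to 2.10 in Rps27a, and Rpl37 and Rps19 have red points on both sides of 0.

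A feature the genes share, and that the rule did not use, is the base composition at the start of transcription. RefSeq start windows of the GRCr8 build were at hand for 66 of the 82 genes. A C at the start followed by at least 4 C or T, the form of a TOP motif, was found in 24 of 66 members (36.4%) and in 2.63% of all 33469 windows. Within 5 bases of the start on either side, on the gene's strand, such a run was found in 41 of 66 members (62.1%) and in 17% of all windows. It was near the start in 15 of 22 members called in at least 1 comparison and in 26 of 44 called in none. The windows below reach from 15 bases before to 15 bases from the start on, with the run in capitals. They show a gene that was lower in 4-18 (Rps15), one lower on both probes (Rpl12), one that was higher (Rps27), and the X-linked gene higher in all groups (Rps4x). In the order given they lie on chr7:10068101-10068130, chr3:36661925-36661954, chr2:177964592-177964621 and chrX:71342907-71342936 of GRCr8, on the minus strand except for Rpl12.
Rps15 start: cgctgacaccgcttcCTTTTCCCagcagcc
Rpl12 start: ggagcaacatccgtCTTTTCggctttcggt
Rps27 start: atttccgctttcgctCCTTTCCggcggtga
Rps4x start: tccagcgcgcgcagCCTCCgaccctaattt
The run was thus present in genes that rose and in genes that fell in the same clone. In Rpl12 and Rps4x it was near the start but not at it. It was found neither at nor near the start of Rps6 and Rps19, which were also called higher in 4-18. No match says only that these letters are absent from the window.

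Other genes of the translation machinery were described by lists. Of 43 genes of ribosome biogenesis, 10 were lower and 2 higher in 4-18, 6 and 1 in 3-44, and 12 and 2 in shRNA3T, 27.9%, 16.3% and 32.6% of the list against the backgrounds of 24.1%, 8.14% and 12.2%. Past 2-fold were Bop1, a factor of large subunit assembly (-1.25), and Polr1a, the largest subunit of RNA polymerase I (1.19), in 4-18, and Emg1 (-1.52), Fbl, the methyltransferase of ribosomal RNA (-1.17), and Polr1b (1.07) in shRNA3T. Below that limit Ncl, the nucleolar protein nucleolin, fell by 0.66, 0.59 and 0.54 in the 3 groups, and Nop10, of the particles that modify ribosomal RNA, by 0.36, 0.32 and 0.60. The median of the list was -0.22, -0.09 and -0.28 where that of all gene names was near 0. With the processed signal scaled by its 75th percentile the lower genes were 10, 0 and 6, and the medians stood below that of all gene names in 4-18 (-0.27 and 0.19) and near it in the other groups. Of 73 mitochondrial ribosomal proteins, which serve a separate ribosome, 11 were lower and 9 higher in 4-18, 3 and 2 in 3-44, and 12 lower and none higher in shRNA3T, with Mrpl18 at -1.02 there. These were 27.4%, 6.85% and 16.4% of that list, beside the same backgrounds. The largest changes of that list in 4-18 were Mrps16 (-1.77), Mrpl51 (-1.69) and Mrpl43 (1.56). Of 52 initiation factor genes, 9 were lower and 6 higher in 4-18, 3 and 3 in 3-44, and 4 and 5 in shRNA3T (28.8%, 11.5% and 17.3%), with Eif2b5 at -1.63 and Eif3c at -1.46 in 4-18 and Eif4g1 at -1.17 in shRNA3T. Eif2d and Eif2s3x, which bring the initiator transfer RNA or its like to the ribosome, were higher in all 3 groups, by 0.77 to 0.87 and by 0.73 to 0.82. Of 11 genes on the elongation factor list 2 were lower in 4-18 (18.2%), Eef1g by 1.01 and Eef2k, the kinase of elongation factor 2, by 0.71, none was called in 3-44, and Eif5a was lower in shRNA3T by 0.28 (9.09%). Of 9 other genes with TOP mRNAs, Vim was lower in all 3 groups, by 0.65, 0.62 and 0.59, Gnb2l1 in 4-18 by 0.53, and Btf3 in shRNA3T by 0.32, which made 22.2%, 11.1% and 22.2% of the list. The median of that list in 4-18 was -0.38, and 0.12 under the 75th percentile scaling, where 1 gene was higher and 1 lower. Without replicate 1 of every group the lower genes were 15, 11 and 19 of ribosome biogenesis in 4-18, 3-44 and shRNA3T. Of the mitochondrial ribosomal proteins they were 12, 3 and 19. For the initiation factors they were 6, 5 and 6, for the elongation factor list 4, 1 and 2, and for the other TOP genes 4, 1 and 2. The higher genes were 3, 2 and 1 of ribosome biogenesis and 12, 1 and 0 of the mitochondrial ribosomal proteins. They were 5, 2 and 4 of the initiation factors and 1, 0 and 0 on the elongation factor list, and no other TOP gene was higher. Of all gene names 25.7%, 10.5% and 14.4% were called in this setting. The median of the elongation factor list in 4-18 turned from -0.15 to 0.05.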

How the data were processed

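Each of 16 samples had its own one-color Agilent array, with 4 biological replicates per group as given by the labels. The scanner output was deposited as intensity per spot, extracted by the authors with Feature Extraction 10.7.3.1, and the deposited value table held log2 values, which equaled log2 of the background-corrected median signal (normexp, offset 50) to within 4e-11. Here the mean spot intensity was background-corrected in the same way and control spots were set aside. Arrays were quantile normalized with outlier spots included, outlier spots were then set aside, and spots of a probe were averaged. All 30367 probes were fitted by group in limma 3.58.1 (R 4.3.3) with Benjamini-Hochberg adjustment. Probe positions are those the array files give for rn4. A missing spot left the array out of that gene's fit.

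Each gene was represented by its brightest probe. Genes were named if among the 5 most raised or lowered calls against CN-10, past 2-fold with a call in any comparison, a variant copy or its namesake, of a listed role of their own, or called both ways by their probes. List examples were the called genes past 2-fold, at most 3 per list. Rpl39, Rpl21, Rps3a, Rpl23a, the genes called only without replicate 1, and the list genes under 2-fold were chosen after their values were seen, and some members' values are not reported here. Members, lists and rules were chosen with earlier results of these data known. Tests were tried on simulated data. Alternatives included other scalings, limits, probe choices and arrays left out. The number of arrays limits the precision. RefSeq start windows (GRCr8) matched 66 members by symbol. No columns of authors' comparisons were used.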

Additional observations from a re-analysis of the deposited data

Results flagged for a closer look

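For 29 groups of 4 arrays, out of 126 examined among the named genes, 1 array lay far from the other 3, and chance alone marks about 1 group in 20. In 27 of the 29 the array was replicate 1. In CN-10, replicate 1 read 18.21 for Rpl10, 17.96 for Rpl11, 17.22 for Rpl22 and 17.13 for Rps27, all below the other arrays, and 18.46 for Rpl6, above them. In 3-44, replicate 1 was low for Rpl11 (17.69), Rpl13a (16.51), Rpl22l1 (14.74), Rpl23 (16.73), Rpl39 (16.93), Rplp0 (18.77), Rplp1 (16.15), Rplp2 (17.64) and Rps19 (17.41). It was high for Rpl36a (17.97) and Rps27a (16.76). In shRNA3T, replicate 1 was low for Rpl10 (18.03), Rpl11 (18.07), Rplp0 (18.71) and Rps27 (17.17). It was high for Rpl39 (18.16), Rpl7l1 (14.28), Rps15 (18.31) and Rps27a (17.19). In 4-18, replicate 1 read 13.93 for Rpl22l1, below the others, and 18.61 for Rpl6 and 17.15 for Rps27a, above them. The other arrays were replicate 2 of 4-18 for Rplp0 (19.1, above) and replicate 3 of shRNA3T for Rps24 (17.32, below).

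For 3 genes the effect against CN-10 differed between silenced groups with fitted values of opposite sign. The test was limma's test of the difference with Benjamini-Hochberg adjustment, though against CN-10 only the fall in 4-18 passed. The values above the control were 0.49 for Rpl10l in 3-44, and 0.03 for Rpl23 and 0.10 for Rps4y2 in shRNA3T. Those of Rpl23 and Rps4y2 were small beside their falls in 4-18 (-1.06 and -1.36). All 4 arrays of 4-18 fell short of the background limit for Rpl10l, so that its fitted difference of -1.33 from 3-44 (adjusted p 0.0011) is no measured size, and it was at least 2.27-fold lower. Rpl23 was lower in 4-18 than in shRNA3T (-1.09, adjusted p 0.015), as was Rps4y2 (-1.45, adjusted p 0.0059). With the processed signal scaled by its 75th percentile the difference of Rpl23 was -0.35 (adjusted p 0.29).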

How the results depend on the processing

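Leaving out replicate 1 of every group was chosen after seeing the data, and the other alternatives were not. The counts of members called, in 4-18, 3-44 and shRNA3T against CN-10, were 13, 4 and 4, and in 4-18 against 3-44, 3-44 against shRNA3T and 4-18 against shRNA3T 17, 3 and 15. With replicate 1 left out, the counts were 21 and 9 in the clones 4-18 and 3-44 against CN-10, 28 and 24 in 4-18 against 3-44 and shRNA3T, and 32 instead of 20 by the F test. Array weights gave 11 and 9 in 3-44 and shRNA3T against CN-10, 8 between these groups, 26 in 4-18 against shRNA3T, and 36 by the F test. The members' share under array weights was 20.7%, 13.4%, 11%, 30.5%, 9.76% and 31.7%, against 23.6%, 15.6%, 25.6%, 22.3%, 22.3% and 22.8% of all gene names, in the order of the counts first given. The processed signal scaled by its 75th percentile gave 30 and 2 in 4-18 and 3-44 against CN-10 and 0 in 3-44 against shRNA3T, and centered on its median it gave 30, 1 and 0. In 3-44 against CN-10, cyclic loess, probes above background and the trended robust fit each gave 1, and the deposited values 2. The trended fit also gave 1 in 3-44 against shRNA3T. A fit of 4-18 and 3-44 alone gave 11. A 2-fold limit left 2 in 4-18 against CN-10, 1 against 3-44 and 2 against shRNA3T, and 0 in the other comparisons. These were 2.44%, 1.22% and 2.44% of the members, against 6.15%, 4.99% and 4.56% of all gene names. Where no member was left, the share of all gene names was 1.47% (3-44 against CN-10), 2.39% (shRNA3T against CN-10) and 2.12% (3-44 against shRNA3T). A 1.5-fold limit left 7 and 7 in 4-18 against CN-10 and 3-44, and 0 in the comparisons without 4-18. Over all gene names the 1.5-fold limit left 15.6% and 13.6% beside the members' 8.54% and 8.54%, and 4.88% to 7.53% beside the counts of 0, while in 4-18 against shRNA3T 13 members passed (15.9% against 12.8%). Beside the counts of 0, limma called 11, 10 and 10 members at an unadjusted p under 0.05 in 3-44 and shRNA3T against CN-10 and in 3-44 against shRNA3T (13.4%, 12.2% and 12.2% against 19.6%, 23.3% and 23.1% of all gene names), and in the last of these 2 with the 75th percentile and 4 with the median.

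The median difference of the members was 0.31, 0.17 and 0.17 in 4-18, 3-44 and shRNA3T against CN-10 under the 75th percentile, and 0.15, -0.016 and 0.11 in 4-18 against 3-44, 3-44 against shRNA3T and 4-18 against shRNA3T. Under median centering these were 0.31, 0.16, 0.18, 0.17, -0.033 and 0.11. Cyclic loess gave 0.016 in 4-18 against CN-10, -0.050 against 3-44 and -0.071 against shRNA3T, and -0.11 in 3-44 against shRNA3T. Array weights gave 0.034 in 3-44 against CN-10 and -0.044 against shRNA3T. In shRNA3T against CN-10 the mean over probes gave 0.062, probes without shared bases 0.048 and replicate 1 left out 0.058. The mean over probes gave -0.079 in 4-18 against 3-44, and replicate 1 left out -0.028 in 3-44 against shRNA3T.

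Directions turned for Rpl23a in 4-18 against CN-10 (0.44 under either processed-signal scaling, 0.62 as the mean over probes) and against shRNA3T (0.23 as the mean over probes). Under the processed-signal scalings they turned for Rpl26 in 3-44 against shRNA3T (0.055 and 0.039), Rpl5 (0.58 and 0.59) and Rps24 (0.36 and 0.36) in 4-18 against CN-10, Rpl6 (0.073 and 0.062) and Rps24 (0.10 and 0.091) in 3-44 against CN-10, and Rplp2 in 4-18 against shRNA3T (0.77 and 0.77). In 4-18 against 3-44 the call of Rpl21 (-0.50, adjusted p 0.011) turned to 0.58 (adjusted p 0.022) under the 75th percentile. That of Rps3a (-0.58, adjusted p 0.046) turned to 0.26 (adjusted p 0.41). Without shared probes Rps19 gave -0.83, -0.85 and -0.96 in 4-18 against CN-10, 3-44 and shRNA3T. The cause was not tested.

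Leaving out 1 array at a time gave counts of 10 to 15, 1 to 5, 3 to 5, 11 to 23, 1 to 4 and 12 to 18, 17 to 24 by the F test, with the members' share above that of all gene names in 3 of 16 fits each for 4-18 against 3-44 and shRNA3T and in none for the others, and medians of -0.12 to -0.044, -0.025 to 0.056, 0.046 to 0.14, -0.24 to -0.099, -0.082 to 0.014 and -0.25 to -0.15, in the order of the counts first given. Same-numbered arrays correlated at -0.11 to 0.44 over all genes (those of replicate 1 at 0.17 to 0.44), so the replicate numbers were not taken to pair the arrays, though 9 of 16 arrays correlated best with their own number, all 4 of replicate 1 among them. With the replicate number as a block the counts were 19, 6, 4, 22, 4 and 22, and 29 by the F test. The members' share was then 23.2%, 7.32%, 4.88%, 26.8%, 4.88% and 26.8%, against 26.6%, 10%, 14.2%, 24.8%, 12.6% and 23% of all gene names, and so above it in 4-18 against the other silenced groups. By the F test the share was 39% against 33.2% without replicate 1, 43.9% against 42% with array weights and 35.4% against 35.4% with the block.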
